A study of Homo sapiens with 24 samples.

Results

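The spliceosomal small nuclear RNA (snRNA) genes were taken as every row of the gene table whose symbol starts with RNU and a digit, or with RNVU1, and whose counts summed to at least 100 over the 24 libraries. This gave 57 rows, out of 1831 rows with such a symbol and 61853 rows in all. By type they were 27 U1, 5 U2, 2 U4, 7 U5 and 11 U6 rows, with 1 row each for U11, U12, U4ATAC, U6ATAC and U7. A list of functional snRNA genes covered 24 of them, and the other 33 were variants or copies, many with a pseudogene symbol. RNU7-1 met the rule although its U7 particle trims histone pre-mRNA and takes no part in splicing. The rows just inside the count minimum were RNU6-18P with a summed count of 101.0, RNU7-1 with 102.6 and RNU6-1 with 118.7. Just outside it lay RNU6-11P with 93.5, RNU6-312P with 82.3 and RNU6-5P with 81.8. RN7SK, an snRNA that holds back RNA polymerase II elongation, is not a member and appears only for comparison.

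snRNAs are short noncoding RNAs that pair with pre-mRNA and with each other inside the spliceosome. In the major spliceosome U1 recognises the upstream splice site, U2 pairs with the branch point, U4 holds U6 inactive until activation, U5 aligns the exons and U6 builds the catalytic centre. The minor spliceosome uses U11, U12, U4atac and U6atac in the same roles and shares U5. RNA polymerase II makes most of these RNAs, which pass through the cytoplasm to receive a ring of Sm proteins from the SMN complex. U6 and U6atac instead come from RNA polymerase III and carry a ring of LSm proteins.

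The cells were 293T, a human embryonic kidney line, in which DIS3 had been knocked down with the hairpin DIS3-sh2 and restored either as the D146N mutant or as the wild-type protein (WT). DIS3 supplies the nuclease activity of the exosome, a complex that degrades and trims RNA, and D146N changes its endonuclease domain. Ribosomal RNA depleted libraries were made from cytoplasmic RNA of fractions 3, 4, 7 and 8 of a sucrose gradient, which separates complexes by size and density, with 3 biological replicates in each of 8 groups. All groups carry the hairpin. The labels used here do not give the number of clones, the rescue promoter or the end from which fractions were numbered.

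Library totals ran from 21150619 to 32989418 counts, and the 57 snRNA rows took 0.0226 to 0.0445% of them. DIS3 itself read 86.7 to 114.5 CPM (the count divided by the library total and scaled) in D146N fractions 7 and 8 and 7.79 to 9.63 CPM in D146N fractions 3 and 4. In WT it read 4.54 to 6.28 CPM in fractions 7 and 8 and 91.4 to 112.2 CPM in fractions 3 and 4, so its fractions ran the opposite way. The counts do not separate endogenous DIS3 from the rescue construct. All 6 markers of the 293T lineage were read, with a summed level of 75.5 to 85.4 CPM in D146N fractions 7 and 8, 5.74 to 6.49 CPM in D146N fractions 3 and 4, 5.31 to 10.6 CPM in WT fractions 7 and 8 and 61.99 to 74.6 CPM in WT fractions 3 and 4. Most of that sum was KRT8, KRT18 and INA. PAX2, NEFM and NEFL reached at most 2.31, 3.11 and 2.175 CPM. These last genes stayed under 1 CPM in D146N fractions 3 and 4 and WT fractions 7 and 8, with NEFM and NEFL at 0 in some D146N libraries there. The fibroblast genes COL1A2 and DCN (2 of 4 listed), the endothelial genes PECAM1, CDH5 and VWF (3 of 3), and the blood genes PTPRC and CD3E (2 of 4) stayed under 1 CPM in all 24 libraries. The other listed fibroblast and blood genes did not. COL1A1 read 8.81 to 10.4 CPM in D146N fractions 7 and 8 and 0.308 to 0.621 CPM in D146N fractions 3 and 4, against 0.121 to 0.414 CPM in WT fractions 7 and 8 and 4.71 to 7.69 CPM in WT fractions 3 and 4. LUM reached 1.44 CPM in D146N and 2.05 CPM in WT, HBB 0.042 and 1.37 CPM, and HBA1 1.23 and 1.47 CPM. Nuclear RNAs were present although the libraries are labelled cytoplasmic: MALAT1 read 1916 to 2156 CPM in D146N fractions 7 and 8 and 152.6 to 172.1 CPM in D146N fractions 3 and 4, against 81.0 to 108.4 CPM in WT fractions 7 and 8 and 2195 to 2383 CPM in WT fractions 3 and 4. NEAT1 and KCNQ1OT1 ran as MALAT1 did, MEG3 stayed under 1 CPM and SNHG14 reached at most 1.88 CPM. RN7SK, by far the largest of the listed nuclear RNAs, ran the other way. Its medians were 20370 CPM in D146N fractions 7 and 8 and 71000 CPM in D146N fractions 3 and 4. In WT they were 43050 CPM in fractions 7 and 8 and 19590 CPM in fractions 3 and 4. Since the fraction numbers ran opposite ways in the genotypes for most of these genes, an effect of D146N and a difference in the numbering of the fractions cannot be told apart. In bulk samples such as these, fewer cells of a kind and less RNA per cell cannot be told apart either.

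The scaling of the libraries decides the sign of many fold changes here. CPM divides by the library total, of which the 10 most abundant rows of each library held 48.6 to 50.2% in D146N fractions 7 and 8 and 76.4 to 77.6% in D146N fractions 3 and 4, against 65.6 to 73.1% in WT fractions 7 and 8 and 51.4 to 52.8% in WT fractions 3 and 4. RPPH1, the RNA of RNase P, had a median of 5955 CPM in D146N fractions 7 and 8 and 140900 CPM in D146N fractions 3 and 4, and of 132600 CPM in WT fractions 7 and 8 and 5766 CPM in WT fractions 3 and 4. The trimmed mean of M values (TMM) instead centres on the typical gene, with mean factors of 0.366 in D146N fractions 3 and 4, 2.81 and 2.76 in D146N fractions 7 and 8, 2.51 in WT fractions 3 and 4, and 0.365 and 0.426 in WT fractions 7 and 8. For fractions 7 and 8 against 3 and 4, the typical gene had a log2 fold change (median of all genes) of 0.10 in D146N and -0.18 in WT with TMM, and of 3.00 in D146N and -2.83 in WT by library totals. Each fold change below is from the TMM fit unless library totals are named, and a share of the snRNA counts or a ratio within a library is free of either scaling.

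Across the gradient, and relative to the typical gene, most snRNAs other than U6 and U6ATAC went with fractions 3 and 4 in D146N and with fractions 7 and 8 in WT. In D146N, 0 of the 57 rows were called higher in fractions 7 and 8 than in 3 and 4, 43 were called lower, 11 were not called and 3 were not tested, where 29.9% of all genes were called higher and 30.3% lower (60.2% either way; edgeR quasi-likelihood test, Benjamini-Hochberg adjusted p under 0.05 over 18907 genes). At an unadjusted p under 0.05, 1 row was higher, the U6 copy RNU6-1016P at 1.63 (SE 0.78, adjusted p 0.0715), and DESeq2 likewise called 0 rows higher. This copy overlaps the gene SENP6. In WT, 42 rows were called higher in fractions 7 and 8, 9 lower, 3 were not called and 3 were not tested, beside 34.6% higher and 39.3% lower over all genes (73.9% either way). The median log2 fold change of the tested snRNA rows was -2.94 in D146N and 2.79 in WT. The tested rows are not all rows: 33 were above the cutoff of the filter on low counts (0.394 CPM) in every library of all 8 groups, while 21 were so in fewer groups or in none. A row that passed only through the groups where it was high had to differ, so the counts and medians of tested rows are a description. On library totals the counts were 22 higher and 23 lower in D146N, where 88.9% of all genes were higher and 4.08% lower, and 25 higher and 23 lower in WT, where 7.66% of all genes were higher and 83.6% lower.

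**Figure D1:**
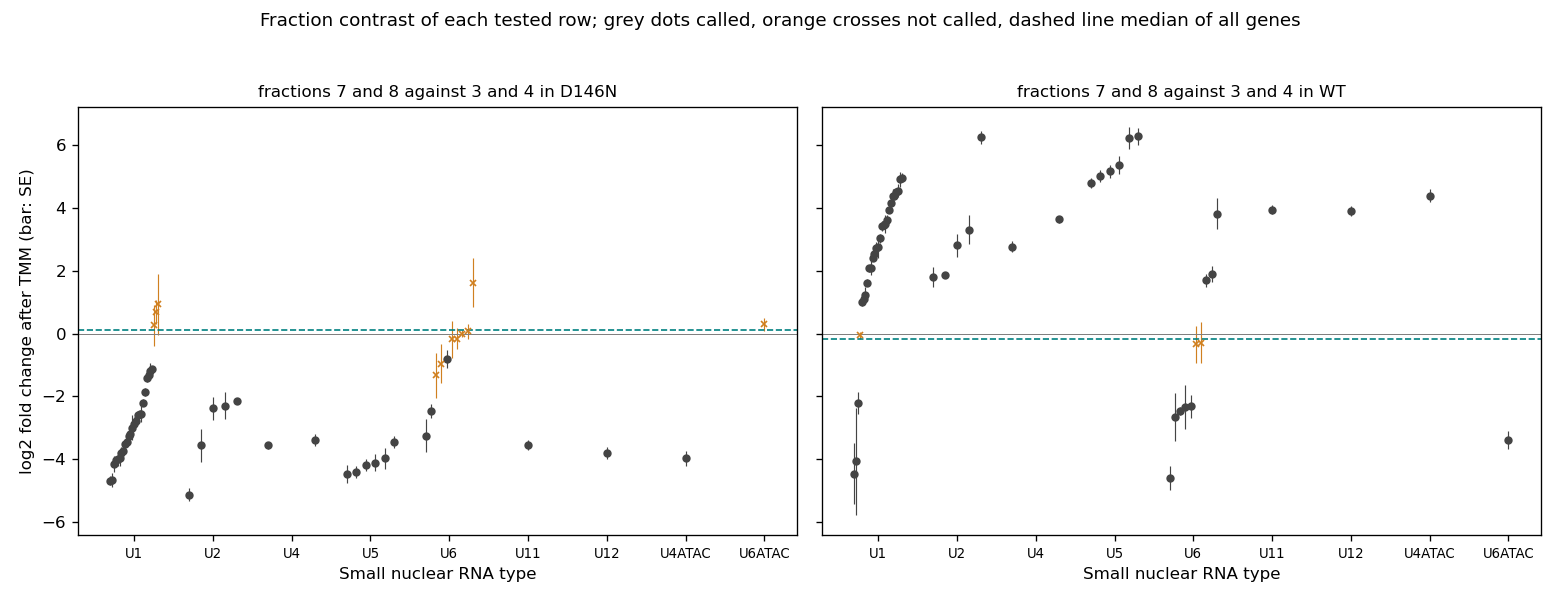
Log2 fold change after TMM of each tested snRNA row in fractions 7 and 8 against 3 and 4, in D146N (left) and WT (right), by snRNA type, with bars for the standard error (SE); the dashed line is the median of all genes. U5, U4, U11, U12 and U4ATAC rows lie below 0 in D146N and above 0 in WT, while U6ATAC and part of the U6 rows do not.

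The difference between the fraction contrasts of the genotypes, D146N minus WT, was tested as an interaction. It was called for 52 rows, 9 higher and 43 lower, with 41.7% of all genes higher and 35.4% lower (77.1% either way). On library totals 24 rows were higher and 25 lower, beside 88.1% and 6.41% of all genes. The rows higher under TMM included U6ATAC, 5 of 10 tested U6 rows and 3 of 27 U1 rows. The U1 rows RNVU1-2A, RNVU1-1 and RNU1-11P and the U6 rows RNU6-9 and RNU6-15P passed the filter only through groups where they were high. Such rows had to differ. All 6 tested U5 rows were lower under both scalings, but the copies RNU5E-6P and RNU5E-4P likewise passed only through groups where they were high. Within WT, RNU5B-1 too passed only through fractions 7 and 8, where it was high.

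U6 and U6ATAC, the RNAs of the catalytic centres of the major and minor spliceosome, ran unlike most of the other types. Of the 10 tested U6 rows, 0 were called higher, 3 lower and 7 not called in D146N. Over all genes, 29.9% were higher and 30.3% lower there. In WT, 3 rows were called higher, 5 lower and 2 not called, beside 34.6% higher and 39.3% lower over all genes. Apart from the 0 higher in D146N, these counts were near the shares of all genes. RNU6-7 (hg38 chr14:32202045-32202151), a functional U6 gene, read 21.6, 24.1 and 27.0 CPM (lowest, median and highest of 6 libraries) in D146N fractions 7 and 8 and 2.85, 3.22 and 3.57 CPM in D146N fractions 3 and 4. In WT it read 0.834, 1.01 and 1.44 CPM in fractions 7 and 8 and 33.2, 36.4 and 41.9 CPM in fractions 3 and 4. The high and low groups did not overlap in either genotype. Its log2 fold change across fractions was -0.0036 (SE 0.11, adjusted p 0.981) in D146N, where no change relative to the typical gene was called, and -2.46 (SE 0.13, adjusted p 4.01e-19) in WT. On library totals these values were 2.92 and -5.14.

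RNU6ATAC (chr9:134164439-134164564), the U6 counterpart of the minor spliceosome, followed the same course at a lower level. It read 4.20, 6.34 and 7.32 CPM in D146N fractions 7 and 8, 0.446, 0.639 and 0.881 CPM in D146N fractions 3 and 4, 0, 0.124 and 0.213 CPM in WT fractions 7 and 8, and 5.81, 7.63 and 8.49 CPM in WT fractions 3 and 4. The lowest of these groups rested on 0 to 7 counts per library, and a count of 0 in WT fraction 7 replicate 3 allows up to 0.0988 CPM (3 counts; counting error only). Its log2 fold change was 0.29 (SE 0.22, adjusted p 0.247) in D146N and -3.41 (SE 0.29, adjusted p 8.64e-13) in WT, and 3.21 and -6.03 on library totals. Without D146N fraction 8 replicate 3 the D146N value was 0.52 and passed (adjusted p 0.039).

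The remaining U6 rows were not uniform. RNU6-9 read 1.05, 1.47 and 2.71 CPM in D146N fractions 7 and 8 and 0.154, 0.262 and 0.315 CPM in D146N fractions 3 and 4, against 0.0483, 0.0784 and 0.162 CPM in WT fractions 7 and 8 and 1.57, 3.02 and 3.91 CPM in WT fractions 3 and 4. It thus ran as RNU6-7 did, with log2 fold changes of -0.16 (adjusted p 0.699) in D146N and -2.32 (SE 0.37, adjusted p 1.02e-06) in WT. RNU6-15P, a copy on chromosome 10, had the lowest WT value of the U6 rows, -4.60 (SE 0.38, adjusted p 2.91e-13), and 0.08 in D146N (adjusted p 0.789). RNU6-9 and RNU6-15P passed the filter on low counts only through D146N fractions 7 and 8 and WT fractions 3 and 4, where they were high, so their fall in WT fractions 7 and 8 describes rows that had to differ. RNU6-2 was called with the other types, at -2.48 (SE 0.23) in D146N and 1.70 (SE 0.21) in WT, and RNU6-8 at -0.82 (adjusted p 0.0129) and 1.90 (SE 0.25). On library totals RNU6-2 and RNU6-8 changed sign, to 0.44 and 2.1 in D146N and to -0.99 and -0.78 in WT. RNU6-8 lost its D146N call in 5 of the 24 fits without a library (without replicate 2 of D146N fraction 3 or 4, replicate 1 or 3 of D146N fraction 7, or replicate 3 of D146N fraction 8), and its value ran from -0.95 to -0.48 over all 24 of them. RNU6-1 had at most 16.0 counts in a library and was called in neither genotype, at -1.33 (SE 0.72) and -0.29 (SE 0.66). Together the U6 rows took 12.0 to 14.2% of the snRNA counts in D146N fractions 7 and 8 and 2.89 to 3.37% in D146N fractions 3 and 4, against 1.10 to 1.499% in WT fractions 7 and 8 and 12.4 to 14.4% in WT fractions 3 and 4.

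**Figure D2:**
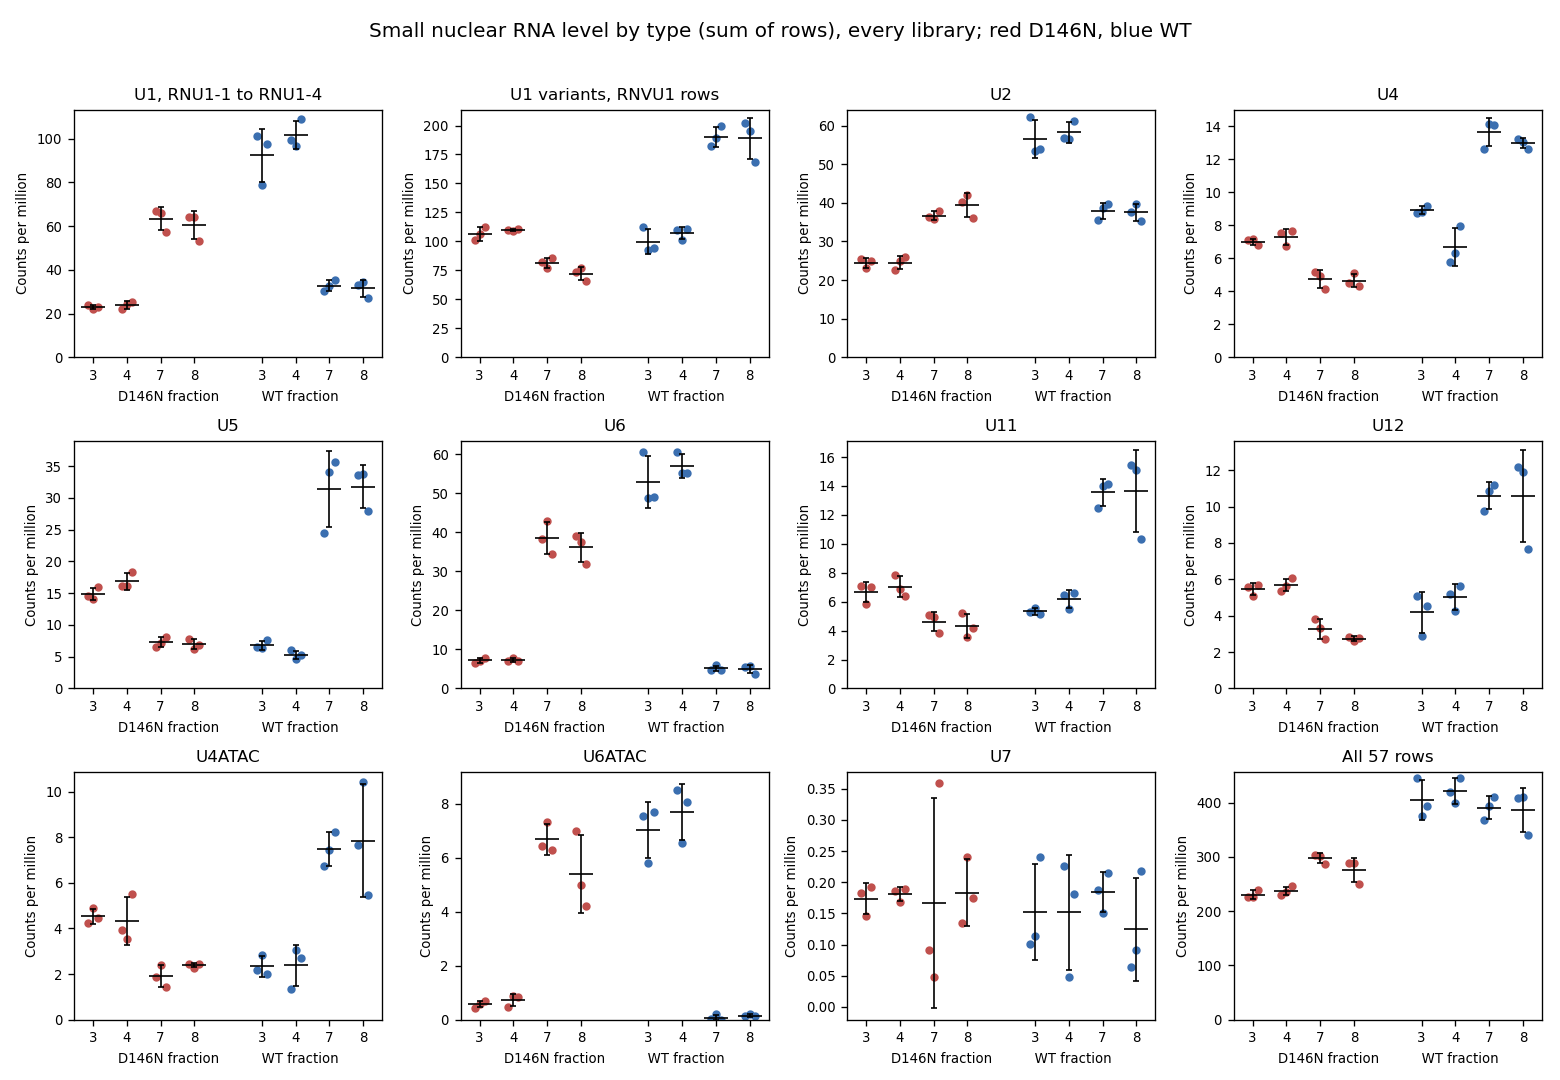
Summed CPM of each snRNA type in every library (points), with the mean and standard deviation (SD) of 3 replicates, by fraction in D146N (red, left) and WT (blue, right) on linear axes. U6 and U6ATAC are high in D146N fractions 7 and 8 and WT fractions 3 and 4, whereas U5, U11, U12 and U4ATAC are highest in WT fractions 7 and 8.

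U5, the RNA both spliceosomes share, showed the opposite course. Its 7 rows summed to 6.25, 7.02 and 8.09 CPM in D146N fractions 7 and 8 and 14.1, 16.0 and 18.4 CPM in D146N fractions 3 and 4. In WT they summed to 24.5, 33.7 and 35.6 CPM in fractions 7 and 8 and 4.63, 6.18 and 7.57 CPM in fractions 3 and 4. All 6 tested U5 rows were called lower in D146N and higher in WT, under TMM and on library totals alike. Of these, the copies RNU5E-6P and RNU5E-4P passed the low-count filter only through D146N fractions 3 and 4 and WT fractions 7 and 8. Both copies were high there, so they had to differ. RNU5F-1 (chr1:44721785-44721902) had log2 fold changes of -4.42 (SE 0.20, adjusted p 5.14e-13) in D146N and 5.02 (SE 0.20, adjusted p 1.82e-14) in WT, with -1.49 and 2.32 on library totals. RNU5A-1 stood at -3.47 (SE 0.19) and 5.17 (SE 0.20), RNU5D-1 at -4.19 (SE 0.18) and 4.80 (SE 0.17), and RNU5B-1 at -3.98 (SE 0.35) and 6.25 (SE 0.35). RNU5B-1 had only 0 to 10 counts per library in WT fractions 3 and 4. Within WT it passed the filter only through fractions 7 and 8, where it was high, so its WT value is a description.

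The U5 genes differed somewhat among themselves in D146N. RNU5B-1 read 0.689, 0.849 and 0.852 CPM in the 3 replicates of fraction 7 but 0.0894, 0.189 and 0.328 CPM in those of fraction 8. RNU5F-1 had a mean of 3.07 ± 0.335 CPM in fraction 7 and 2.46 ± 1.10 CPM in fraction 8 (SD, n = 3 each). RNU5E-1 did not pass the filter on low counts, with medians of 0.336 CPM in D146N fractions 7 and 8, 0.177 CPM in D146N fractions 3 and 4, 0.143 CPM in WT fractions 7 and 8 and 0.165 CPM in WT fractions 3 and 4, and its fractions overlapped in both genotypes.

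U4, which keeps U6 in an inactive duplex, went with U5 rather than with U6. RNU4-2 (chr12:120291759-120291903) read 3.19, 3.77 and 4.01 CPM in D146N fractions 7 and 8 and 5.39, 5.73 and 6.08 CPM in D146N fractions 3 and 4, against 10.2, 10.8 and 12.6 CPM in WT fractions 7 and 8 and 3.92, 6.40 and 7.15 CPM in WT fractions 3 and 4. These fraction groups did not overlap within a genotype. Its log2 fold change was -3.57 (SE 0.11, adjusted p 2.01e-25) in D146N and 3.64 (SE 0.10, adjusted p 4.23e-27) in WT, and -0.64 and 0.95 on library totals. RNU4-1, its neighbour, stood at -3.39 (SE 0.19) and 2.77 (SE 0.16), but on library totals at -0.48 and at 0.09 with an adjusted p of 0.618 in WT.

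The minor spliceosome split in the same manner. RNU4ATAC (chr2:121530880-121531009), the U4 counterpart, read 1.44, 2.34 and 2.46 CPM in D146N fractions 7 and 8 and 3.54, 4.35 and 5.51 CPM in D146N fractions 3 and 4. In WT it read 5.49, 7.56 and 10.4 CPM in fractions 7 and 8 and 1.35, 2.45 and 3.07 CPM in fractions 3 and 4. The groups again did not overlap, and the log2 fold changes were -3.98 (SE 0.23, adjusted p 9.87e-12) and 4.40 (SE 0.22, adjusted p 3.30e-13), or -1.05 and 1.70 on library totals. RNU4ATAC overlaps CLASP1, the gene of a microtubule-binding protein, whose medians of 38.4 CPM in D146N fractions 7 and 8, 9.40 CPM in D146N fractions 3 and 4, 13.1 CPM in WT fractions 7 and 8 and 41.3 CPM in WT fractions 3 and 4 ran the opposite way.

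RNU11 and RNU12, which recognise the upstream splice site and branch point of minor introns as a joint particle, moved together. RNU11 read 3.54, 4.56 and 5.21 CPM in D146N fractions 7 and 8 and 5.85, 6.94 and 7.85 CPM in D146N fractions 3 and 4, against 10.4, 14.1 and 15.5 CPM in WT fractions 7 and 8 and 5.13, 5.52 and 6.63 CPM in WT fractions 3 and 4. RNU12 read 2.60, 2.81 and 3.84 CPM and 5.10, 5.61 and 6.05 CPM in the same D146N fractions, and 7.67, 11.03 and 12.2 CPM and 2.90, 4.82 and 5.63 CPM in those of WT. The lowest WT library of fractions 7 and 8 was fraction 8 replicate 3 for RNU11, RNU12 and RNU4ATAC alike. RNU11 had log2 fold changes of -3.54 (SE 0.16, adjusted p 1.85e-15) in D146N and 3.94 (SE 0.15, adjusted p 3.47e-17) in WT, and RNU12 of -3.81 (SE 0.18) and 3.91 (SE 0.17). Both kept their direction on library totals, with -0.62 and 1.24 for RNU11 and -0.89 and 1.21 for RNU12.

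Ratios between rows of the same library, picked after the values were seen and described without a test, show the split with no scaling. The log2 ratio of RNU6ATAC to RNU4ATAC, the duplex partners of the minor spliceosome, averaged 1.48 ± 0.47 in D146N fractions 7 and 8 and -2.77 ± 0.44 in D146N fractions 3 and 4, against -6.30 ± 1.49 in WT fractions 7 and 8 and a positive 1.67 ± 0.60 in WT fractions 3 and 4 (SD, n = 6 libraries each; 0.5 added to each count). That of RNU6-7 to RNU4-2 averaged 2.71 ± 0.11 and -0.84 ± 0.18 in the same D146N fractions and -3.42 ± 0.37 and 2.69 ± 0.45 in those of WT. In both ratios the high and low groups were far apart, and D146N fractions 3 and 4 lay above WT fractions 7 and 8. RNU11 to RNU12 stayed between 0.06 and 0.94 in all 24 libraries, with means of 0.56 ± 0.17, 0.29 ± 0.16, 0.36 ± 0.03 and 0.35 ± 0.31 in that order, and the groups overlapped.

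**Figure D3:**
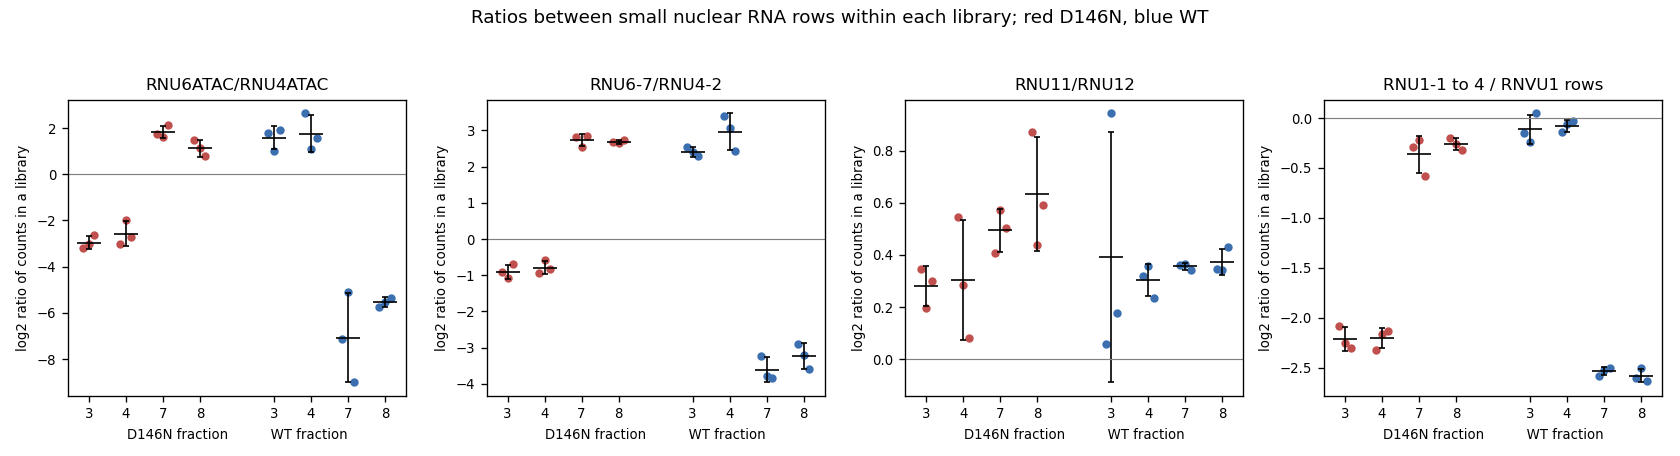
Log2 ratio between snRNA rows or sums within each library (points), with the mean and SD of 3 replicates, by fraction in D146N (red, left) and WT (blue, right). The ratio of RNU6-7 to RNU4-2 runs from -1.09 to -0.59 in D146N fractions 3 and 4 and from -3.85 to -2.90 in WT fractions 7 and 8, and above 2 elsewhere, whereas RNU11 to RNU12 stays within 0.06 to 0.94.

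U1, which binds the upstream splice site, held the largest part of the snRNA counts in all groups, at 62.1 to 65.9% in D146N fractions 7 and 8, 68.2 to 69.9% in D146N fractions 3 and 4, 68.1 to 71.0% in WT fractions 7 and 8, and 64.1 to 65.7% of those in WT fractions 3 and 4. Its make-up differed far more than its sum. The canonical genes RNU1-1 to RNU1-4 took 20.0 to 22.3% of the snRNA counts in D146N fractions 7 and 8 and 9.53 to 10.6% in D146N fractions 3 and 4, against 8.00 to 8.58% in WT fractions 7 and 8 and a larger 20.99 to 24.8% in WT fractions 3 and 4. The 20 RNVU1 rows, variant U1 genes that lie mostly on chromosome 1, took 25.6 to 29.9% and 44.7 to 47.7% in the same D146N fractions and 47.7 to 49.6% and 24.01 to 26.2% in those of WT. The ranges of canonical and variant U1 thus ran in opposite directions, without overlap between fractions.

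The single U1 genes showed it on the CPM scale. RNU1-2, a canonical gene, read 10.6, 12.7 and 12.9 CPM in D146N fractions 7 and 8 and 2.66, 3.68 and 4.37 CPM in D146N fractions 3 and 4, against 2.81, 3.18 and 3.87 CPM in WT fractions 7 and 8 and 17.1, 21.9 and 27.1 CPM in WT fractions 3 and 4. RNVU1-18, the variant gene among the functional list, read 9.82, 11.5 and 12.6 CPM and 15.6, 16.5 and 18.4 CPM in the D146N fractions, and 24.1, 30.2 and 31.4 CPM and 14.8, 16.5 and 20.4 CPM in those of WT. Within each genotype, RNU1-2 was thus low in the fractions where RNVU1-18 was high. Log2 fold changes were -1.14 (SE 0.12, adjusted p 3.42e-10) in D146N and -0.05 (SE 0.12, adjusted p 0.678) in WT for RNU1-2, and -3.51 (SE 0.14, adjusted p 1.60e-15) and 3.46 (SE 0.13, adjusted p 5.50e-16) for RNVU1-18. RNU1-1, RNU1-3 and RNU1-4 were called lower in D146N, at -1.31, -1.43 and -1.86, and higher in WT, at 1.01, 1.10 and 1.63. On library totals all 4 canonical genes changed sign in D146N, to 1.06 to 1.78, and were lower in WT, at -2.75 to -1.07, while RNVU1-18 kept its sign at -0.58 and 0.76.

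**Figure D4:**
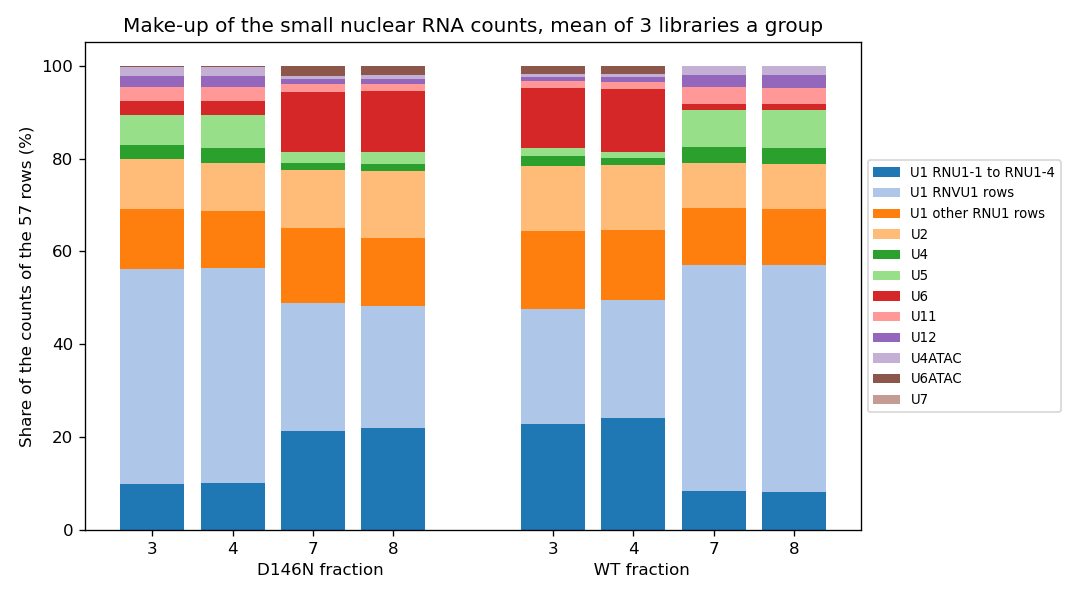
Mean percentage of the counts of the 57 rows taken by each snRNA type, with U1 split into RNU1-1 to RNU1-4, the RNVU1 rows and the other RNU1 rows, by fraction in D146N (left) and WT (right); each bar is the mean of 3 libraries. D146N fractions 7 and 8 and WT fractions 3 and 4 hold the larger shares of U6, U6ATAC and canonical U1, and the other groups those of RNVU1 and U5.

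Variant U1 rows did not all follow that course. Of the 27 U1 rows, 24 were called lower and 0 higher in D146N, and 23 higher and 3 lower in WT. On library totals 11 were higher and 11 lower in D146N, and 13 higher and 11 lower in WT, beside the same shares of all genes as above. RNVU1-34, a copy on chromosome 17, had the largest changes of the U1 rows, at -4.69 (SE 0.15, adjusted p 9.61e-22) and 4.96 (SE 0.14, adjusted p 6.72e-23). RNVU1-2A went the other way in WT, at -2.22 (SE 0.35, adjusted p 6.85e-07), and was not called in D146N at 0.69 (adjusted p 0.108), where it passed in 6 of the 24 fits without a library. It passed the filter only through D146N fractions 7 and 8 and WT fractions 3 and 4, the groups where it was high, and so had to differ. It read 1.30, 1.84 and 2.16 CPM in D146N fractions 7 and 8 and 0.0811, 0.155 and 0.189 CPM in D146N fractions 3 and 4, against 0, 0.114 and 0.234 CPM in WT fractions 7 and 8 and 2.64, 3.43 and 3.96 CPM in WT fractions 3 and 4. The other U1 rows that were lower in WT, RNVU1-1 at -4.08 and RNU1-11P at -4.46, were named after their values were seen. They had summed counts of only 271.7 and 171.0, and RNU1-11P overlaps the gene PHACTR1. RNVU1-1 passed the filter only through WT fractions 3 and 4, and RNU1-11P only through those and D146N fraction 7. Both were high in these groups and so had to differ. One D146N library of RNVU1-1, fraction 7 replicate 3, stood at 6.26 CPM where the other replicates of that fraction read 0.322 and 0.448 CPM.

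U2, which marks the branch point, ran like canonical U1. RNU2-2P, named RNU2-2 in RefSeq (chr11:62841619-62841809) and the largest U2 row, read 31.4, 33.4 and 38.2 CPM in D146N fractions 7 and 8 and 18.6, 20.4 and 20.7 CPM in D146N fractions 3 and 4, against 27.1, 28.9 and 30.9 CPM in WT fractions 7 and 8 and 45.4, 50.4 and 56.1 CPM in WT fractions 3 and 4. Its log2 fold change was -2.15 (SE 0.09, adjusted p 2.54e-21) in D146N and 1.88 (SE 0.08, adjusted p 2.83e-20) in WT, but 0.78 and -0.81 on library totals. It overlaps WDR74, a ribosome assembly gene, whose medians of 44.9, 23.02, 34.3 and 59.7 CPM in the same order of groups ran alike. The labels do not state whether counting used strand, so reads of RNU2-2P and WDR74 cannot be told apart.

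RNU2-1, the repeated canonical U2 gene, varied more between replicates. It read 1.81, 2.88 and 4.06 CPM in D146N fractions 7 and 8 and 0.989, 2.14 and 2.64 CPM in D146N fractions 3 and 4, against 2.52, 2.80 and 3.86 CPM in WT fractions 7 and 8 and 1.25, 5.55 and 9.97 CPM in WT fractions 3 and 4. The groups overlapped in both genotypes. Its log2 fold changes were -2.38 (SE 0.37, adjusted p 2.11e-05) and 1.80 (SE 0.33, adjusted p 7.74e-05), and on library totals 0.54 (adjusted p 0.136) and -0.88 (adjusted p 0.012). The copy RNU2-63P, by contrast, kept its direction under both scalings, at -5.13 and -2.23 in D146N and at 6.25 and 3.58 in WT. Within WT it passed the filter only through fractions 7 and 8, where it was high.

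RNU7-1 was under the filter on low counts and was not tested. Its medians of 0.155, 0.185, 0.169 and 0.148 CPM in D146N fractions 7 and 8, D146N fractions 3 and 4, WT fractions 7 and 8 and WT fractions 3 and 4 lay within each other's ranges. It rested on 1.0 to 8.0 counts per library, so a difference was not detectable at this depth.

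At the same fraction number, D146N and WT differed for most snRNA rows, in opposite directions in fractions 3 and 4 and in fractions 7 and 8. In fractions 3 and 4, 42 rows were called higher in D146N, 6 lower, 6 were not called and 3 were not tested, beside 29.7% higher and 31.2% lower over all genes (60.9% either way). In fractions 7 and 8, 9 rows were called higher in D146N, 43 lower, 2 were not called and 3 were not tested, beside 38.5% and 35.2% (73.7% either way). The median log2 fold change of the snRNA rows was 2.26 in fractions 3 and 4 and -3.57 in fractions 7 and 8, while that of all genes was -0.12 and 0.16. On library totals, with medians over all genes of -2.88 and 2.95, 18 rows were higher and 28 lower in fractions 3 and 4, beside 4.59% and 87.8% of all genes, so that the majority turned round. In fractions 7 and 8 the library totals gave 19 higher and 31 lower, beside 85.3% and 6.77%.

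All 6 tested U5 rows were higher in D146N in fractions 3 and 4 and lower in fractions 7 and 8 under both scalings. The copies RNU5E-6P and RNU5E-4P had to differ here too, since they passed the filter only through the groups where they were high. RNU5B-1 was higher in D146N in fractions 3 and 4 by 5.05 (SE 0.39, adjusted p 2.64e-13), and by 2.31 on library totals, and lower in fractions 7 and 8 at -5.18 (SE 0.32, adjusted p 4.58e-16), or -2.35. In fractions 3 and 4 it was above the filter cutoff in every library only on the D146N side, where it was high. The WT side held 0 to 10 counts per library, so that value is a description. RNU4ATAC stood at 3.68 (SE 0.23) and -4.69 (SE 0.22), RNU11 at 3.03 (SE 0.15) and -4.46 (SE 0.15), and RNU12 at 3.06 (SE 0.18) and -4.66 (SE 0.18), with library totals of the same sign for each. RNU6-7 went the other way, at -0.77 (SE 0.11, adjusted p 1.54e-07) in fractions 3 and 4 and 1.69 (SE 0.13, adjusted p 3.47e-14) in fractions 7 and 8, as did RNU6ATAC at -0.73 (SE 0.21, adjusted p 2.97e-03) and 2.96 (SE 0.30, adjusted p 6.52e-11). Canonical U1 turned with the scaling: RNU1-1 was at 0.55 (SE 0.12) and -1.77 (SE 0.12) after TMM and at -2.23 and 1.07 on library totals. Values of these comparisons and of the fraction contrasts share their libraries and are not independent.

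Because the fraction numbers ran opposite ways, D146N was also set against WT across numbers, a comparison chosen with that mirror pattern known. Here the scalings lay closer for the typical gene. It stood at 0.01 with TMM and 0.16 by library totals for D146N fractions 7 and 8 against WT fractions 3 and 4. For D146N fractions 3 and 4 against WT fractions 7 and 8 it stood at 0.01 and -0.09. Most called snRNA rows were lower in D146N in both. In D146N fractions 7 and 8 against WT fractions 3 and 4, 1 row was called higher, 25 lower, 28 were not called and 3 were not tested, beside 6.9% higher and 10.4% lower over all genes (17.3% either way). In D146N fractions 3 and 4 against WT fractions 7 and 8, 4 rows were called higher, 33 lower, 17 were not called and 3 were not tested, beside 17.1% and 12.1% (29.2% either way). On library totals the counts were 1 higher and 21 lower, beside 16.9% and 5.29% of all genes, and 4 higher and 34 lower, beside 12% and 15%. The larger share over all genes thus changed sides with the scaling in both comparisons, while that of the snRNA rows did not. The snRNA rows include copies that share reads and are not independent of each other.

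**Figure D5:**
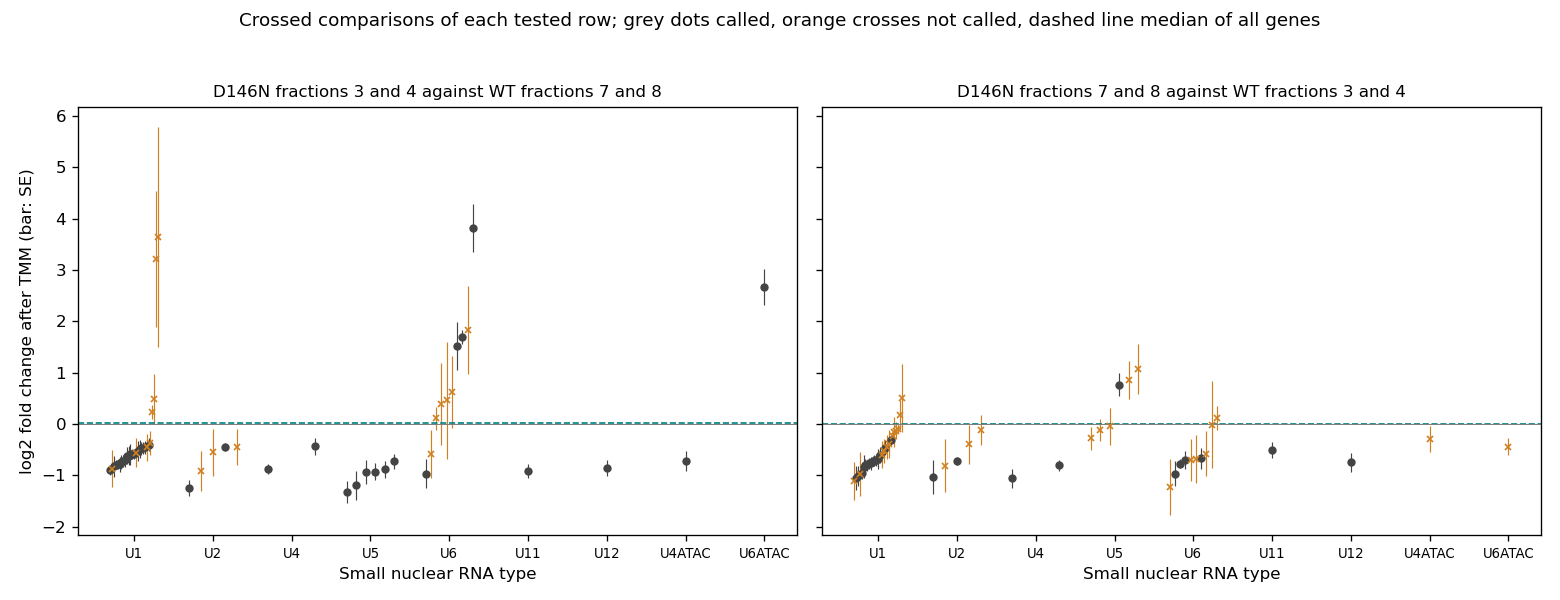
Log2 fold change after TMM of each tested snRNA row, by snRNA type, with bars for the SE. The left panel sets D146N fractions 3 and 4 against WT fractions 7 and 8. The right panel sets D146N fractions 7 and 8 against WT fractions 3 and 4. RNU6-7, RNU6-9 and RNU6ATAC lie above 0 on the left, at 1.70, 1.51 and 2.67, and most other rows lie below 0 in both panels.

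The summed level shows the size of that difference. All 57 rows together had 249.7, 288.0 and 303.9 CPM (lowest, median and highest) in D146N fractions 7 and 8, against 374.5, 409.1 and 445.1 CPM in WT fractions 3 and 4. They had 225.9, 232.4 and 245.5 CPM in D146N fractions 3 and 4, against 340.3, 401.2 and 409.4 CPM in WT fractions 7 and 8. All D146N libraries thus lay below all WT libraries on this scale. The lowest D146N library of fractions 7 and 8 was fraction 8 replicate 3, and the lowest WT library of those fractions was also replicate 3 of fraction 8.

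In D146N fractions 7 and 8 against WT fractions 3 and 4, the called snRNA genes were nearly all lower by modest amounts. RNU1-2 was at -0.96 (SE 0.11, adjusted p 1.77e-08), RNU2-2P at -0.72 (SE 0.08, adjusted p 5.59e-08), RNU4-2 at -0.80 (SE 0.11, adjusted p 1.17e-06), RNU6-7 at -0.77 (SE 0.09, adjusted p 1.18e-07) and RNU12 at -0.75 (SE 0.19, adjusted p 7.49e-03). RNU5A-1 was the only row called higher, at 0.77 (SE 0.23, adjusted p 0.0185), with 0.919, 1.73 and 2.45 CPM in D146N and 0.405, 1.02 and 1.56 CPM in WT, ranges that overlap. RNU2-1 passed at -1.02 (SE 0.33, adjusted p 0.0413), but lost the call on library totals (adjusted p 0.0559), with no low-count filter (adjusted p 0.0775) and in 15 of the 24 fits without a library, with -0.78 and an adjusted p of 0.13 without WT fraction 3 replicate 1. RNU6-2 likewise passed at -0.67 (adjusted p 0.0251) and lost the call in 6 such fits, with -0.44 and an adjusted p of 0.104 without WT fraction 3 replicate 1. RNU6ATAC was not called at -0.44 (SE 0.16, adjusted p 0.0532) but passed in 6 of the 24 fits without a library, with DESeq2 (adjusted p 0.0348) and with no low-count filter (adjusted p 0.0403). Also not called were RNU4ATAC at -0.29 (adjusted p 0.492), RNU5F-1 at -0.28 (adjusted p 0.453) and RNU5B-1 at 1.07 (SE 0.48, adjusted p 0.132).

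In D146N fractions 3 and 4 against WT fractions 7 and 8, RNU6ATAC and 3 of the 10 tested U6 rows were the rows called higher, while the U6 gene RNU6-8 was called lower at -0.97 (SE 0.28, adjusted p 8.36e-03) and 6 U6 rows were not called. RNU6ATAC was higher by 2.67 (SE 0.35, adjusted p 2.62e-07) and RNU6-15P by 3.81 (SE 0.46, adjusted p 4.67e-08). RNU6-7 was higher by 1.70 (SE 0.14, adjusted p 1.47e-11) and RNU6-9 by 1.51 (SE 0.46, adjusted p 0.0118). RNU6-15P read 0.265, 0.453 and 0.649 CPM in D146N fractions 3 and 4, against 0, 0.0315 and 0.0608 CPM in WT fractions 7 and 8. The lowest D146N library of RNU6-9, at 0.154 CPM, lay below its highest WT library, at 0.162 CPM. RNU6-9 missed the threshold without D146N fraction 3 replicate 2, at 1.33 with an adjusted p of 0.0555. All 6 tested U5 rows were lower, from -1.33 to -0.73, with RNU5B-1 at -1.20 (SE 0.28, adjusted p 1.08e-03). RNU4-2 was at -0.88 (SE 0.10, adjusted p 5.68e-09), RNU11 at -0.92 (SE 0.14, adjusted p 1.57e-05), RNU12 at -0.85 (SE 0.16, adjusted p 2.66e-04), RNU4ATAC at -0.72 (SE 0.20, adjusted p 9.27e-03) and RNU1-4 at -0.46 (SE 0.12, adjusted p 4.64e-03). RNU4-1 passed only narrowly, at -0.44 (adjusted p 0.0443), and lost the call with no low-count filter (adjusted p 0.207) and in 9 fits without a library, with -0.37 and an adjusted p of 0.125 without D146N fraction 3 replicate 2. RNU1-2, at 0.23 (adjusted p 0.184), was the canonical U1 gene that was not called.

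Other RNAs moved beside the U6 rows in that comparison. MALAT1 was higher by 0.91 (SE 0.06, adjusted p 1.87e-13), NEAT1, another nuclear RNA, by 0.74 (SE 0.07, adjusted p 4.44e-11), RN7SK by 0.83 (SE 0.10, adjusted p 4.93e-08) and the mRNA of DIS3 by 0.81 (SE 0.09, adjusted p 4.65e-09). RPPH1, at 0.20 (adjusted p 0.119), was not called. The sum of the 6 nuclear RNA markers, nearly all of it RN7SK, ran from 70570 to 71620 CPM in D146N fractions 3 and 4 and from 34630 to 44960 CPM in WT fractions 7 and 8. Their part in the U6 and U6ATAC result was not tested.

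Levels per length put the genes on 1 scale. Per kilobase of RefSeq length, RNU6-7 averaged 234.2 and 217.7 CPM in D146N fractions 7 and 8, and 343.9 and 351.9 CPM in WT fractions 3 and 4, above every other functional gene in those groups. In D146N fractions 3 and 4, RNU2-2P led with 104.3 and 104.5 CPM per kilobase and RNVU1-18 followed with 101.1 and 104.2. In WT fractions 7 and 8, RNVU1-18 led with 183.6 and 173.9, followed by RNU2-2P with 149.9 and 152.3 and by RNU5F-1 with 130.7 and 125.2 CPM per kilobase. RNU6ATAC had 52.9 and 42.8 CPM per kilobase in D146N fractions 7 and 8, and 0.620 and 1.22 in WT fractions 7 and 8. Neighbours such as RNU2-2P and RNVU1-18 in D146N fractions 3 and 4 differed by less than the spread between replicates, the SD of RNVU1-18 being 9.55 in fraction 3.

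Counts of single rows are less certain than sums of a type, since near-identical copies share reads. Over all gene rows, 73.3% of the nonzero values were whole numbers (within 0.005), but in 26 of the 57 snRNA rows no more than 50% were. Only 8.33% of the values of RNU2-2P and 4.17% of those of RNU1-1 were whole, against 79.2% for RNU2-63P. No snRNA row was identical to another row. Of the 56 rows with a RefSeq span, 25 overlap another gene. Besides WDR74, the host ARMH1 of RNU5F-1 had medians of 0.905, 0.0943, 0.219 and 1.10 CPM (D146N fractions 7 and 8, D146N fractions 3 and 4, WT fractions 7 and 8, WT fractions 3 and 4), opposite to RNU5F-1. Whether reads came from mature snRNA, from longer precursors or from host transcripts was not tested.

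The genes that make and dress snRNAs were read as mRNAs, from lists of 102 genes of which 101 were tested. In fractions 7 and 8 against 3 and 4, 40 were called higher and 35 lower in D146N, beside 29.9% and 30.3% of all genes, and 35 higher and 50 lower in WT, beside 34.6% and 39.3%. Among them are the Sm and LSm proteins, which form the rings of U1 to U5 and of U6. All 14 tested Sm and LSm genes were called lower in D146N, with a median of -1.96, and higher in WT, with a median of 2.84, whereas their medians on library totals were 0.96 and 0.15. On library totals 12 were called higher and 2 lower in D146N, and 7 higher and 6 lower in WT, so that neither direction held for the whole list under both scalings. LSM2, of the U6 ring, was at -3.90 (SE 0.11, adjusted p 1.68e-22) in D146N and 4.11 (SE 0.11, adjusted p 3.08e-23) in WT, and SNRPD2, of the Sm ring, at -3.34 (SE 0.11, adjusted p 3.72e-21) and 4.37 (SE 0.12, adjusted p 7.87e-24). Both kept their direction on library totals, with -0.97 and 1.43 for LSM2 and -0.41 and 1.66 for SNRPD2.

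Other lists were mixed after TMM, and their counts are to be read against the same shares of all genes. Of 36 proteins specific to a snRNP type, 17 were higher and 11 lower in D146N, and 12 higher and 19 lower in WT. SF3B5, a small subunit of the U2 particle, was at -2.85 (SE 0.07, adjusted p 2.05e-28) in D146N, where library totals gave 0.07, and 3.30 (SE 0.07, adjusted p 3.16e-30) in WT, and SF3B2, a large subunit of the same particle, at 1.36 (SE 0.07) and -1.99 (SE 0.07). SNRNP70, the protein that binds U1, was at 1.27 (SE 0.07, adjusted p 4.79e-17) in D146N, where RNU1-1 to RNU1-4 were lower after TMM. On library totals all of these were higher in D146N, SNRNP70 at 4.195 and the U1 genes at 1.06 to 1.78. LSM10, of the U7 ring, was at -3.34 in D146N and 3.88 in WT. Of 13 genes of SMN assembly, which loads the Sm ring, 5 were higher and 3 lower in D146N, and 5 higher and 6 lower in WT. GEMIN7 was at -2.1 (SE 0.15) and 2.59 (SE 0.15), which turned to 0.83 and -0.06 on library totals, and GEMIN5, which recognises snRNA, at 0.49 (SE 0.08) and -1.32 (SE 0.08).

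Among 10 genes of snRNA transcription, 6 were higher and 2 lower in D146N, and 1 higher and 8 lower in WT. SNAPC5, a subunit of the complex that reads snRNA promoters, was at -1.40 (SE 0.13) in D146N and 2.09 (SE 0.12) in WT, which turned to 1.52 and -0.58 on library totals, and ICE1, of the little elongation complex, at 0.55 (SE 0.09) and -1.60 (SE 0.09). The Integrator, which cuts the 3' ends of snRNA precursors, had 4 of 14 genes higher and 4 lower in D146N, close to the shares of all genes, and 2 higher and 7 lower in WT, with INTS1 at 1.14 (SE 0.12) and -1.87 (SE 0.13). Of 14 genes of capping, export, trimming and modification, 8 were higher and 1 lower in D146N and 1 higher and 10 lower in WT. USB1, which trims the end of U6, was at 1.10 (SE 0.13, adjusted p 3.96e-09) in D146N, and TGS1, which further methylates the snRNA cap, at -1.43 (SE 0.10, adjusted p 2.94e-15) in WT. On library totals nearly all genes of these lists were higher in D146N and lower in WT, 97 and 88 of the 101 tested, as were 88.9% and 83.6% of all genes.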

How the data were processed

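Gene-level expected counts of 24 ribosomal RNA depleted libraries, 3 for each of 8 groups, were deposited by the authors in 1 table, not normalized and partly fractional. Bowtie2 2.3.5, HISAT2 2.1.0, SAMtools and featureCounts 1.5.1 with hg38 are named in the submitters' processing notes. How reads that fit several genes were divided, and whether strand was used, is not given in the sources used here, so the counts of near-identical snRNA genes and of overlapping genes are uncertain. The expected counts were rounded to whole numbers for testing. CPM, shares and ratios used the counts as deposited.

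edgeR 4.0.16 in R 4.3.3 fitted 8 group means to all libraries (TMM, low-count filter by group, robust quasi-likelihood test, Benjamini-Hochberg adjustment over 18907 genes, 54 of the 57 snRNA rows among them). The biological coefficient of variation was 13.8%. The SE is the fold change divided by the square root of F. Alternatives were library totals without TMM, median-of-ratios size factors, DESeq2 1.42.0, no low-count filter, a replicate block and omission of each library, and the fit was checked on simulated counts. The series' design text describes the 3 replicates as biological. With library totals of 21150619 to 32989418 counts, intervals and floors cover counting error only.

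The snRNA rows, gene lists, tests and the comparisons across fraction numbers were chosen with earlier results of these data known. Genes were named by rule: every functional snRNA gene; of the other rows, per comparison, up to 3 in each direction with the largest fold change among those with an adjusted p under 0.05 and a mean of at least 1 CPM, of which those that add to the account are printed; of each pathway list, up to 2 in each direction with the smallest p, treated alike; and RN7SK, RPPH1, MALAT1 and NEAT1 for comparison. RefSeq spans of GRCh38 gave positions and overlaps.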

Additional observations from a re-analysis of the deposited data

Results flagged for a closer look

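The fraction contrast of most snRNA rows differed between the genotypes by a test of the difference itself, D146N minus WT (edgeR, adjusted p under 0.05), which held for 52 of the 57 rows, 9 higher and 43 lower, where 77.1% of all genes passed. On library totals 24 rows were higher and 25 lower, beside 88.1% and 6.41% of all genes. The values below are after TMM. The log2 difference was positive at 3.70 for RNU6ATAC, 2.46 for RNU6-7 and 2.16 for RNU6-9, which passed the filter only where it was high. Among the functional genes it was most negative for U5, at -10.23 for RNU5B-1, -9.44 for RNU5F-1, -8.99 for RNU5D-1 and -8.64 for RNU5A-1, and among the copies it reached -11.39 for RNU2-63P, -9.66 for RNVU1-34 and -9.23 for RNVU1-21. Within WT, RNU5B-1 and RNU2-63P passed the filter only through fractions 7 and 8, where they were high. In the minor spliceosome the log2 difference was -8.38 for RNU4ATAC, -7.72 for RNU12 and -7.49 for RNU11. RNU4-2 stood at -7.21 and RNU4-1 at -6.17, RNU2-1 at -4.18 and RNU2-2P at -4.03, and the U6 genes RNU6-2 at -4.19 and RNU6-8 at -2.73. Among U1 genes, RNVU1-18 stood at -6.97, RNU1-4 at -3.49, RNU1-3 at -2.52, RNU1-1 at -2.32 and RNU1-2 at -1.09. Genotype and the numbering of the fractions cannot be told apart in these values.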

How the results depend on the processing

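The scaling was the choice that turned directions. On library totals, D146N against WT in fractions 3 and 4 gave 46 called rows of which 18 were higher and 28 lower, and log2 fold changes there turned to -0.036 for RNVU1-18, -1.62, -2.23, -2.60 and -2.16 for RNU1-4, RNU1-1, RNU1-2 and RNU1-3, -1.35 for RNU2-2P, -1.42 for RNU2-1, -0.018 for RNU4-2, -0.43 for RNU4-1, -0.96, -1.84 and -2.59 for RNU6-2, RNU6-8 and RNU6-1, and -1.04 for RNVU1-23. In fractions 7 and 8 they turned to 0.52, 1.07, 1.93 and 0.93 for RNU1-4, RNU1-1, RNU1-2 and RNU1-3, 0.24 for RNU2-2P, 0.0052 for RNU2-1, and 0.47, 1.04 and 1.75 for RNU6-2, RNU6-8 and RNU6-1. Across fractions in D146N they turned to 1.06, 1.61, 1.78 and 1.497 for RNU1-4, RNU1-1, RNU1-2 and RNU1-3, 0.78 for RNU2-2P, 0.54 for RNU2-1, 2.92, 0.44, 2.1, 2.74 and 1.48 for RNU6-7, RNU6-2, RNU6-8, RNU6-9 and RNU6-1, and 0.35 for RNVU1-23. Across fractions in WT they turned to -1.07, -1.69 and -1.59 for RNU1-4, RNU1-1 and RNU1-3, -0.81 for RNU2-2P, -0.88 for RNU2-1, -0.99 and -0.78 for RNU6-2 and RNU6-8, and -0.59 for RNVU1-23. The difference of the fraction contrasts turned to 2.13, 3.30, 4.53 and 3.09 for RNU1-4, RNU1-1, RNU1-2 and RNU1-3, 1.59 for RNU2-2P, 1.42 for RNU2-1, 1.43, 2.87 and 4.34 for RNU6-2, RNU6-8 and RNU6-1, and 0.94 for RNVU1-23. In D146N fractions 7 and 8 against WT fractions 3 and 4, RNU5D-1, RNU2-63P and RNVU1-34, not called under either scaling, turned to 0.032, 0.024 and 0.016. The cause was not tested.

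With other tools, RNU1-2 across fractions in WT turned to 0.036 with median-of-ratios size factors and to 0.038 with DESeq2. With no low-count filter, RNU6-1 in fractions 3 and 4 turned to -0.017 and RNU6-7 across fractions in D146N to 0.12; none of these was called. The replicate numbers did not pair the libraries, whose same-number correlations ran from -0.0202 to 0.0317, with 10 of 24 libraries best with their own number. The replicate block left calls at 48, 52, 43, 51, 52, 26 and 34 rows, in the order of fractions 3 and 4, fractions 7 and 8, D146N and WT across fractions, their difference, and both comparisons across numbers, D146N fractions 7 and 8 first. With the block, RNU2-1 in D146N fractions 7 and 8 against WT fractions 3 and 4 stood at -1.01 (edgeR, adjusted p 0.0596) and RNU4-1 in D146N fractions 3 and 4 against WT fractions 7 and 8 at -0.43 (adjusted p 0.0506), both no longer called. Without each library in turn, the same counts ran from 47 to 48, 51 to 53, 42 to 45, 50 to 51, 51 to 52, 21 to 30 and 33 to 38. Fold changes that changed sign in such fits, none of them called, ran from -0.75 to 0.35 for RNU6-1 in fractions 3 and 4, from -0.020 to 0.17, -0.28 to 0.11 and -0.0093 to 0.33 for RNU6-7, RNU6-9 and RNU6-15P across fractions in D146N, and from -0.21 to 0.062 for RNU1-2 in WT. In D146N fractions 7 and 8 against WT fractions 3 and 4, they ran from -0.26 to 0.065 for RNU5D-1, -0.27 to 0.079 for RNU2-63P and -0.0085 to 0.49 for RNVU1-4. In D146N fractions 3 and 4 against WT fractions 7 and 8, they ran from -0.065 to 0.24 for RNU6-2 and from -0.44 to 0.85 for RNU6-1. Depth limits RNU6-1, RNU7-1 and RNU5E-1 in all groups and U6ATAC in WT fractions 7 and 8, which rest on few counts. The same holds for RNU5B-1 in WT fractions 3 and 4, and for RNU6-9 in WT fractions 7 and 8 and D146N fractions 3 and 4.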
